A study of Mus musculus with 2 samples.

Results

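The microRNA loci described here are those known for blood vessels, mesenchyme and cartilage, measured in embryonic mouse hindbrain. They were chosen by name: Mir126a, Mir143, Mir199a-1, Mir199a-2, Mir199b, Mir214, Mir140 and the Mir143 neighbour Mir145a, 8 of the 1973 loci in the deposited tables. All 8 had a row in both tables. The hindbrain, from which cerebellum, pons and medulla arise, was dissected from strain B6NCrl embryos at 14.5 days. The series holds 1 untreated group of 2 replicate libraries of RNA under 30 nucleotides, replicate 2 collected on day 30 and replicate 1 on day 24 of July 2014. The labels describe each sample as a single hindbrain and also as pooled male and female, and both carry the same donor label. Errors and p-values therefore speak of these 2 libraries alone, and the spread between them may be technical. The exact binomial p-values below cover counting error and not that spread. Collection day and replicate cannot be told apart. Replicate 2 had 6667238 gene-strand counts on microRNA loci and replicate 1 had 5826676. Levels are CPM, counts per 1000000 gene-strand counts on loci.

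MicroRNAs are cut from a hairpin precursor, whose 5′ side (5p) and 3′ side (3p) can each give a mature strand of about the size sequenced here. Bases 2 to 8 of the mature strand, the seed, pair with target messenger RNAs. miR-126 is known from endothelial cells, the lining of vessels, where it acts in vascular endothelial growth factor signalling. miR-143 and miR-145 are known from smooth muscle and pericytes, the mural cells around vessels, where they favour the contractile state. miR-140 is known from cartilage cells, and miR-199 and miR-214 from mesenchyme, the loose connective tissue that also forms the meninges around the brain.

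The mature sequences are shown first, because their overlap decides which reads could be counted at a locus. RefSeq sequences on GRCm38.p6, the build of the deposited tables, are given here for 6 of the 8 loci, and the seed stands in capitals.
miR-126a-3p (Mir126a): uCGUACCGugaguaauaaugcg
miR-140-3p (Mir140): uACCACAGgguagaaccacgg
miR-214-5p (Mir214): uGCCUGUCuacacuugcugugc
miR-214-3p (Mir214): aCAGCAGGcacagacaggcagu
miR-199a-5p (Mir199a-1 and Mir199a-2): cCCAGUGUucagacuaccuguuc
miR-199a-3p and miR-199b-3p (Mir199a-1, Mir199a-2 and Mir199b): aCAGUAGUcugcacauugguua
Mir143, Mir145a, miR-126a-5p, miR-140-5p and miR-199b-5p are not shown. The 9 mature entries of the 6 loci held 6 distinct sequences and 6 distinct seeds. Among the 1679 mature names of the RefSeq table, 1 other name shared the seed of miR-140-3p (miR-497b) and 1 other that of miR-214-3p (miR-761). The seeds of miR-126a-3p, miR-214-5p and miR-199a-5p occurred under no other name of that table, which lacks miR-199b-5p. The 6 listed sequences thus had separate seeds, and miR-199a-3p and miR-199b-3p are the same molecule in sequence. This says nothing of the mature strands not shown.

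The 3 miR-199 hairpins show how far the loci can be told apart, with the listed mature arms in capitals.
Mir199a-1: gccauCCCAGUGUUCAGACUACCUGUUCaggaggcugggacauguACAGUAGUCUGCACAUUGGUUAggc
Mir199a-2: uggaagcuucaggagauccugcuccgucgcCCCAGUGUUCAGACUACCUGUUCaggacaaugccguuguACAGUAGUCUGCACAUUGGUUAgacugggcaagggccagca
Mir199b: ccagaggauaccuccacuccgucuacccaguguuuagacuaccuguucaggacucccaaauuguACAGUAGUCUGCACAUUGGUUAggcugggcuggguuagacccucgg
These hairpins lie at chr9:21496495-21496564 on the minus strand, chr1:162217814-162217923 on the plus strand and chr2:32318460-32318569 on the plus strand. The 22-base miR-199-3p stood in all 3 hairpins. The 23-base miR-199a-5p stood whole in Mir199a-1 and Mir199a-2. Laid on the Mir199b hairpin without gaps it matched 22 of 23 bases, with the difference C10U counted from 1 at the 5′ end of miR-199a-5p. This difference lies outside the seed, so the Mir199b hairpin also holds the seed of miR-199a-5p. Against 2202 annotated mouse microRNA hairpins, 17 of the 51 windows of 20 bases in Mir199a-1 also occurred in another hairpin, as did 16 of 91 in Mir199a-2 and 10 of 91 in Mir199b. Both listed arms of Mir199a-1 and Mir199a-2 lay wholly inside such shared windows. In Mir199b the 3p arm did, while the region matching miR-199a-5p did not.

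**Figure D1:**
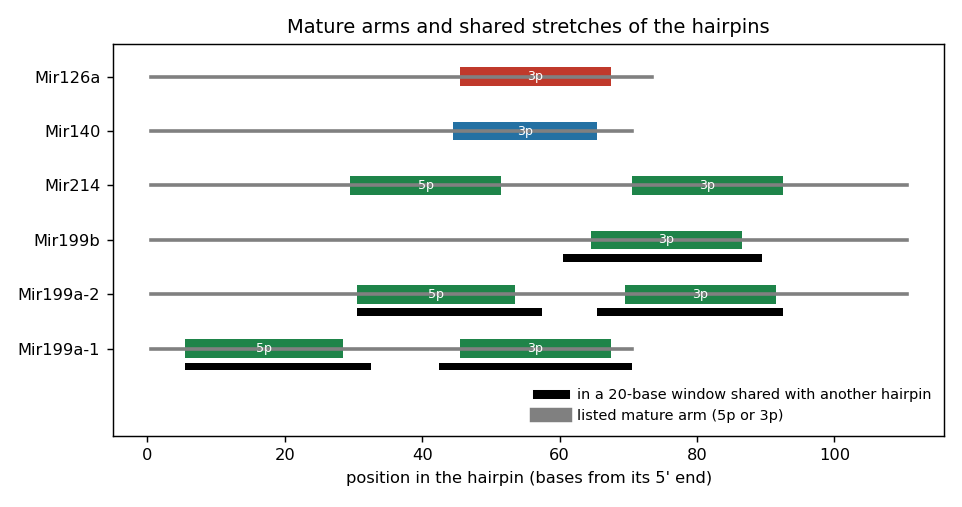
Listed mature arms (coloured boxes) and bases inside a 20-base window that also occurs in another annotated hairpin (black bars), along 6 hairpins in bases from the 5′ end. Mir126a, Mir140 and Mir214 have no shared window, whereas every listed arm of the 3 miR-199 hairpins lies in one.

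Mir126a, Mir143, Mir145a, Mir140 and Mir214 had 0 windows shared with another hairpin, leaving out Mir126b, which lies on the opposite strand of the same bases. Reads that mapped to several positions stand in a separate row of the deposited tables and made up 34.3% of reads in replicate 2, against 33.9% in replicate 1. Reads of a whole miR-199-3p or miR-199a-5p match more than 1 hairpin, so the counts of the 3 miR-199 loci leave them out wherever they mapped that way. Levels of these 3 loci are therefore uncertain, and how many multimapping reads were miR-199 is not given by the tables.

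Together the 8 loci held 4.85% of gene-strand counts in replicate 2 (95% exact interval, 4.83 to 4.86, by the Clopper-Pearson method), against 4.29% in replicate 1 (4.27 to 4.30), 4.57% ± 0.395 on average (SD, n = 2). These intervals, and those below for levels and ratios, cover counting error only. They treat each read as independent. No molecular identifiers were counted, so they may be too narrow. Endothelial Mir126a made up 74.9% ± 1.11 of the members' counts, mural Mir143 and Mir145a 14.8% ± 0.767, cartilage Mir140 9.49% ± 0.189 and the 4 mesenchymal loci 0.736% ± 0.151 (SD, n = 2). With at least 10 counts in each library, 7 of the 8 loci were detected. The locus below that minimum was Mir199a-1. The mesenchymal share leaves out multimapping reads of the miR-199 loci, so it may be too low beside the other shares. In bulk tissue, fewer cells of a type and less RNA per cell cannot be told apart.

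**Figure D2:**
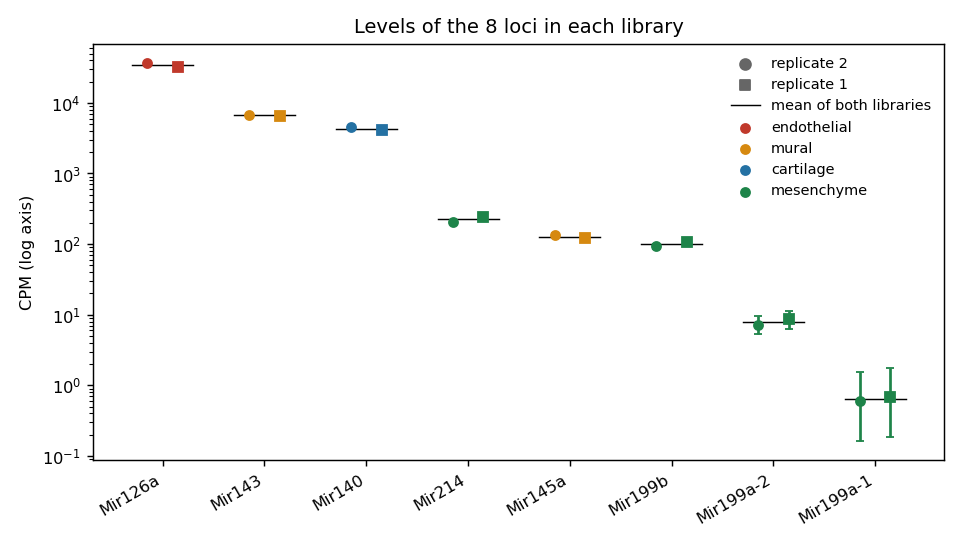
CPM of each locus (log axis) in replicate 2 (circles) and replicate 1 (squares), with 95% exact binomial intervals for counting error and the mean of both libraries as a line. The loci span from 34235 CPM for Mir126a to 0.643 CPM for Mir199a-1, and the widest gap between neighbouring loci, from Mir140 to Mir214, was 22.2-fold in replicate 2, against 16.9-fold in replicate 1.

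Mir126a, whose product keeps vessels intact in mice, lies at chr2:26591357-26591429 on the plus strand of GRCm38 and overlaps an annotated exon of the endothelial gene Egfl7. Its gene-strand count was 244600 in replicate 2, against 185190 in replicate 1. That is 36687 CPM in replicate 2, against 31783 CPM in replicate 1, with a mean of 34235 ± 3467 CPM (SD, n = 2). It ranked 6 in replicate 2, against 7 in replicate 1, among 1973 loci. This rank is among counts assigned to a single locus. It leaves out multimapping reads, and with them reads of microRNAs with several copies, such as Mir124a-1, which had 7.95 CPM in replicate 2, against 7.55 CPM in replicate 1, and shared 25 of its 66 windows of 20 bases with its copies.

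Mir143 and Mir145a are neighbours on chromosome 18, at chr18:61649196-61649258 and chr18:61647825-61647894 on the minus strand, with 1301 bases between the hairpins. GENCODE places both outside other genes, though both are known to lie within the long non-coding RNA gene Carmn. Mir143 had 6797 CPM in replicate 2, against 6473 CPM in replicate 1 (mean 6635 ± 229, SD, n = 2). Mir145a had 133 CPM in replicate 2, against 123 CPM in replicate 1 (mean 128 ± 7.50, SD, n = 2). The 2 loci of this cluster thus had very unequal counts, with 50.9 Mir143 counts for each Mir145a count in replicate 2, against 52.7 in replicate 1. How evenly small RNA libraries capture different sequences was not measured here, which limits every comparison of levels between loci.

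Mir140, of cartilage, lies at chr8:107551244-107551313 on the plus strand and overlaps an annotated exon of Wwp2, a ubiquitin ligase gene. It had 4535 CPM in replicate 2, against 4126 CPM in replicate 1 (mean 4330 ± 289, SD, n = 2), rank 42 in replicate 2, against rank 46 in replicate 1. Mir455, also known from cartilage, had 285 CPM in replicate 2, against 283 CPM in replicate 1. There were 15.9 Mir140 counts for each Mir455 count in replicate 2, against 14.6 in replicate 1. Mir140 is also made outside cartilage, so its level alone does not place it in cartilage cells.

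Mir214 lies at chr1:162223368-162223477 on the plus strand, in an exon of Dnm3os and in an intron of Dnm3 on the opposite strand. Dnm3os is a non-coding transcript of mesenchyme and also holds Mir199a-2, with 5444 bases between the hairpins. Mir214 had 1361 counts or 204 CPM in replicate 2, against 1419 counts or 244 CPM in replicate 1 (mean 224 ± 27.9 CPM, SD, n = 2). Mir199a-2 had 48 counts or 7.20 CPM in replicate 2, against 50 counts or 8.58 CPM in replicate 1. The ratio of Mir214 to Mir199a-2 counts was 28.4 in both libraries, but it rests on so few Mir199a-2 counts that a difference between the libraries could not be seen at this depth.

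Mir199b, in an intron of Dnm1 on the opposite strand, had 621 counts or 93.1 CPM in replicate 2, against 633 counts or 109 CPM in replicate 1. It had 12.9 times the counts of Mir199a-2 in replicate 2, against 12.7 times in replicate 1. Mir199a-1, in an intron of Dnm2 on the opposite strand, had 4 counts in each library, 0.600 CPM in replicate 2 (95% interval 0.163 to 1.54), against 0.686 CPM in replicate 1 (0.187 to 1.76). The order Mir199b, Mir199a-2, Mir199a-1 follows the share of 20-base windows found in no other hairpin, which was 89.0%, 82.4% and 66.7%. These shares depend on the annotated hairpin length, 110, 110 and 70 bases in that order, with 10, 16 and 17 shared windows. The listed arms of Mir199a-2 and Mir199a-1 both lay wholly in shared windows and do not separate these 2 loci. With 3 loci this order is a description, and the part of shared windows in the levels was not tested. Summed, the 3 loci had 101 CPM in replicate 2, against 118 CPM in replicate 1.

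The order of the 8 levels was Mir126a, Mir143, Mir140, Mir214, Mir145a, Mir199b, Mir199a-2 and Mir199a-1 in both libraries. For none of the 7 pairs of neighbours in this order did the values of the 2 libraries overlap. The closest were Mir145a and Mir199b, with a ratio of counts of 1.43 in replicate 2, against 1.13 in replicate 1, where their 95% intervals overlapped (114 to 132 CPM for Mir145a and 100.3 to 117 CPM for Mir199b), and Mir143 and Mir140, with 1.50 in replicate 2, against 1.57 in replicate 1. Counts were not divided by length, because mature strands are read whole and the 9 listed here are 21 to 23 bases long. The loci nearest in level over both libraries, by distance on log2(CPM + 1), were Mirlet7i for Mir126a (38149 CPM in replicate 2, against 32777 CPM in replicate 1) and Mir30d for Mir143 (6608 CPM in replicate 2, against 6623 CPM in replicate 1). For Mir140 the nearest was Mir18, for Mir214 Mir135a-1, for Mir145a Mir216b and for Mir199b Mir155. With 2 libraries, nearness in level says nothing of a shared pattern.

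**Figure D3:**
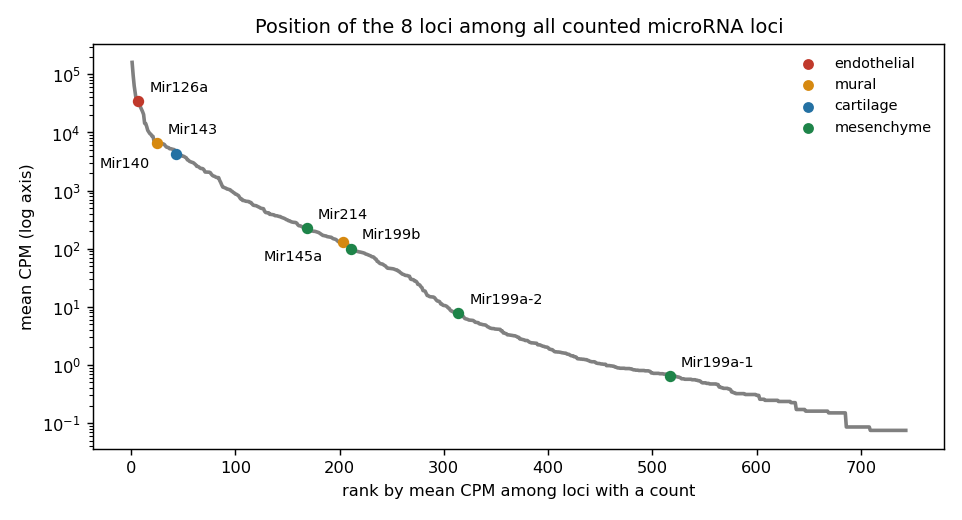
Mean CPM (log axis) against rank for the 743 loci with a count in either library, with the 8 loci marked by cell type. Mir126a, Mir143 and Mir140 stand within the first 43 ranks, Mir214, Mir145a and Mir199b between ranks 169 and 211, and the Mir199a loci at ranks 314 and 517.

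Other microRNAs of vessel wall, mesenchyme and cartilage were looked up as a fixed list of 8. Of these 6 had a row and 5 were detected, while Mir126b and Mir3120 had no row. Mir145b had 0 counts in both libraries, which allows up to 0.450 CPM in replicate 2, against 0.515 CPM in replicate 1 (3 counts). Mir21a, common in fibroblasts, had 4077 CPM in replicate 2, against 4108 CPM in replicate 1. Mir221 and Mir222, a pair from chromosome X known from endothelium and smooth muscle, had 188 and 91.0 CPM in replicate 2, against 181 and 84.6 CPM in replicate 1. Mir31 had 138 CPM in replicate 2, against 106 CPM in replicate 1. The list together held 0.478% of counts in replicate 2, against 0.476% in replicate 1, which corresponds to 9.86% of the members' counts in replicate 2, against 11.1% in replicate 1.

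Mir10a and Mir10b, encoded in Hox clusters active in the hindbrain, together had 140148 CPM in replicate 2, against 179036 CPM in replicate 1. With no other tissue to compare, this level does not test the hindbrain label. The 7 neural loci, 6 of them detected, had a sum of 14207 CPM in replicate 2, against 12869 CPM in replicate 1. Of these 7, all but Mir137 share windows of 20 bases with other hairpins, so this sum leaves out multimapping reads of the copies and is no level of the mature strands to set against Mir126a. For other cell types, the 3 red cell loci were all detected, with a sum of 386 CPM in replicate 2, against 278 CPM in replicate 1. Of these, Mir486 shares 6 of its 109 windows with Mir3107, so its counts may leave out multimapping reads. Myeloid Mir223 had 208 CPM in replicate 2, against 194 CPM in replicate 1, and choroid plexus Mir204 had 2153 CPM in replicate 2, against 2759 CPM in replicate 1. Of the 5 muscle loci, Mir1a-2 had no row. Among the 4 with a row Mir206 alone was detected, and Mir133a-2 had 1 count in replicate 2, against 0 in replicate 1. These 4 had a summed level of 16.3 CPM in replicate 2, against 14.9 CPM in replicate 1. Mir1a-1 and Mir133a-1 were at 0 in both libraries, but 9 of 58 windows of Mir1a-1 and 17 of 49 of Mir133a-1 also occur in their copies, so these counts of 0 do not show that the mature strands were absent.

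No conditions were compared, so the remaining question is how well the 2 libraries agree for these loci. Endothelial Mir126a was 1.12-fold higher in replicate 2, while mesenchymal Mir214 and Mir199b were 1.23-fold and 1.20-fold higher in replicate 1. These differences passed a test of counting error and did not pass one that allows for the spread of loci between the libraries. Each locus was given an exact binomial test, two-sided, after TMM scaling of the libraries and with Benjamini-Hochberg adjustment over 498 loci. It called 5 of the 7 measured members. Over all loci it called 32.5%, with 17.5% higher and 15.1% lower in replicate 2. At this depth small differences pass such a test, and it compares these libraries, not conditions. With edgeR's common dispersion, a coefficient of variation of 10.8% between the libraries, 0 members were called and 0 had an unadjusted p under 0.05. That exact test called 1.41% of the 498 loci, 7 in all, and 27 had an unadjusted p under 0.05. Its dispersion was estimated from the same 2 libraries that it compares, so few calls are built into it. The 0 called members are therefore no evidence that the libraries agree.

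**Figure D4:**
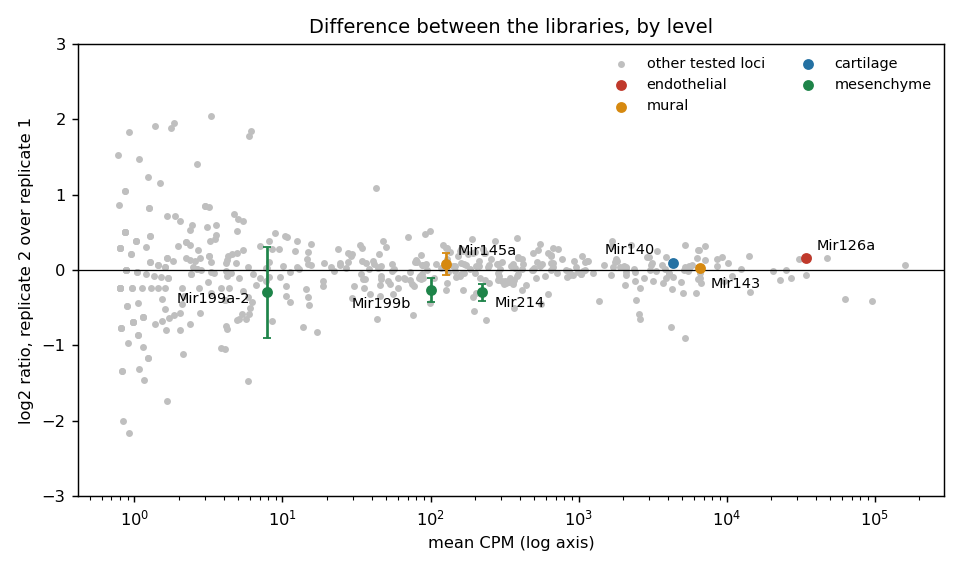
Log2 ratio of replicate 2 over replicate 1 against mean CPM (log axis) for the 498 tested loci (grey) and the 7 measured members (coloured, with exact 95% intervals for counting error). Mir126a, Mir140, Mir143 and Mir145a lie above 0 and Mir214, Mir199b and Mir199a-2 below it, all within the cloud of other loci.

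The 3 members called higher in replicate 2 were Mir126a, Mir140 and Mir143. Mir126a had a log2 ratio of 0.16 (95% interval 0.16 to 0.17, adjusted p at most 5.53e-299 by the exact binomial test), a 1.12-fold difference. Mir140 had 0.09 (0.07 to 0.12, adjusted p = 4.46e-13 by the exact test), a 1.07-fold difference. Mir143 had 0.03 (0.01 to 0.05, adjusted p = 0.0190 by the exact test), and this call was lost with DESeq2 size factors (adjusted p = 0.502) and with upper quartile scaling (adjusted p = 0.462). Its cluster neighbour Mir145a had 0.08 (-0.07 to 0.22) and did not pass.

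The 2 members called lower in replicate 2 were the mesenchymal loci Mir214 and Mir199b. Mir214 had a log2 ratio of -0.30 (-0.41 to -0.19, adjusted p = 3.51e-07 by the exact binomial test), 1.23-fold higher in replicate 1. Mir199b had -0.26 (-0.43 to -0.10, adjusted p = 0.00464 by the exact test), 1.20-fold higher in replicate 1. Mir199a-2 had -0.30 with a wide interval (-0.90 to 0.30) at 48 counts in replicate 2, against 50 in replicate 1, and was not called. Mir199a-1 fell short of the summed count of 10 needed for the test. The median log2 ratio over the 7 measured members was 0.03, against 0.01 over all 498 tested loci.

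**Figure D5:**
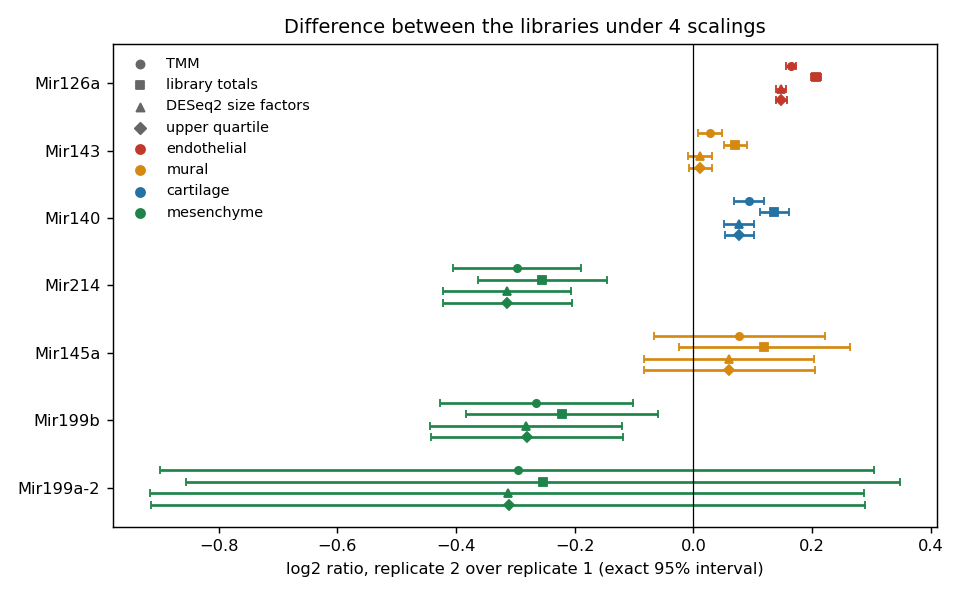
Log2 ratio of replicate 2 over replicate 1 with exact 95% intervals for counting error, for the 7 measured members under 4 scalings of the libraries. Mir126a and Mir140 lie above 0 and Mir214 and Mir199b below 0 under all 4, while the intervals of Mir143 include 0 under DESeq2 size factors and upper quartile scaling.

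Ratios within a library do not depend on scaling. There were 179.7 Mir126a counts for each Mir214 count in replicate 2, against 130.5 in replicate 1, a 1.38-fold difference. Mir143 counts per Mir214 count were 33.3 in replicate 2, against 26.6 in replicate 1, and Mir140 counts per Mir214 count were 22.2 in replicate 2, against 16.9 in replicate 1. The counts of vessel and cartilage loci per Mir214 count thus differed between the libraries by 1.25-fold to 1.38-fold. Inside the Mir143 and Mir145a cluster the ratio in replicate 2 was 0.967 times that in replicate 1, and inside the Dnm3os pair, with its low Mir199a-2 counts, it was 0.999 times. These ratios were chosen after the values were seen, and no test is given for them.

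Loci of the other lists also differed between the libraries, in both directions. Over all tested loci the exact binomial test called 17.5% higher and 15.1% lower in replicate 2. With 2 libraries, a shared direction says nothing of a shared pattern. Among red cell loci Mir451a had a log2 ratio of 0.38 (0.28 to 0.48) and Mir144 1.09 (0.83 to 1.37), both called higher in replicate 2, while Mir486 had -0.47 (-0.90 to -0.04) and did not pass. Choroid plexus Mir204 had -0.40 (-0.43 to -0.37), and Mir10a and Mir10b had -0.41 and -0.38, all called lower in replicate 2. Among neural loci Mir137, Mir128-1 and Mir128-2 had 0.09, 0.15 and 0.19 and were called higher in replicate 2, Mir9-3 had -0.10 and was called lower, and the 3 Mir124a loci did not pass. Among the 5 measured loci of the wider vessel and mesenchyme list, Mir31 was called higher with 0.33 (0.18 to 0.48), Mir21a was called lower with -0.05 (-0.08 to -0.03) and 3 did not pass. These are calls of the exact binomial test, and of these loci Mir144 alone was called with the common dispersion. The part of these loci and their cell types in the members' ratios was not tested.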

How the data were processed

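The authors deposited raw read counts for each microRNA locus, with no normalization, once for both strands together and once for either strand. Per the file lists deposited with the tables, the build was mm10 with annotation release M4. Neither the aligner nor the counting program is named in the sources used here. Library sizes and tests excluded the 4 rows that name no locus: unmapped reads (15.9% in replicate 2, 13.8% in replicate 1), multimapping reads (34.3% in replicate 2, 33.9% in replicate 1), reads outside loci (3.31% in replicate 2, 2.99% in replicate 1) and 0 ambiguous reads. The gene-strand column, 97.8% of locus counts in replicate 2 and 98.0% in replicate 1, was used. GENCODE M21 on the same build (GRCm38) gave symbols and places for 1894 of 1973 loci, and RefSeq gave sequences.

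Intervals are Clopper-Pearson at 95%, and the floor is 3 counts. TMM factors were 1.01 for replicate 2 and 0.985 for replicate 1. The exact binomial test covered 498 loci whose counts summed to at least 10, with a threshold of 0.05 and 0.5 added to counts in log2 ratios. With 1 library on each side, edgeR's quasi-likelihood test could not be fitted, so edgeR's exact test with its common dispersion served as the alternative. Real differences between the libraries enlarge that dispersion. The tests were run on simulated counts as a check. Few false calls were required of the binomial test only where counting error was the sole spread. The check does not vouch for its calls at the spread between these libraries. Members and lists were chosen with earlier results of these data known. The text names all members, the loci of the fixed lists and the locus nearest in level to each member with at least 100 counts in each library. Alternatives covered scaling, filter, strand, denominator, added count, summed copies and leaving out each replicate. Scaling and tests ran in R 4.3.3 with edgeR 4.0.16 and DESeq2 1.42.0. Tables, intervals and figures were made in Python 3.11.15 with scipy 1.17.1, pandas 2.3.3, numpy 2.4.6 and matplotlib 3.10.9.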

Additional observations from a re-analysis of the deposited data

Results flagged for a closer look

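Opposite-strand reads at Mir126a, in a column not used for the levels, stood at 8 counts in replicate 2 and 4 counts in replicate 1, above the 3 counts that a count of 0 allows. Mir126b is annotated there and has no row of its own. Beside 244600 gene-strand counts in replicate 2 and 185190 in replicate 1, these are few.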

How the results depend on the processing

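With all reads of the table as the denominator, the members' summed share was 2.18% in place of 4.57%. With gene-strand counts on loci as the denominator, the summed share without Mir126a was 1.14% in place of 4.57%. Leaving out each replicate gave 4.29% to 4.85%. The count of called members was 5 with TMM scaling, library totals, both strands, no filter and summed miR-199 copies. It was 4 with DESeq2 size factors, upper quartile scaling or a summed count of at least 100, where Mir143 lost its call, and 0 with edgeR's common dispersion (0 at an unadjusted p under 0.05). No log2 ratio of a measured member changed sign under the alternatives run. The members' median turned to -0.10 without a filter, which adds Mir199a-1. In each library 7 members had at least 10 counts, 8 had at least 3 and 6 had at least 100. Log2 ratios of all loci lay 0.04 higher with library totals and 0.02 lower with DESeq2 size factors. Leaving out a replicate leaves 1 library and no test of the difference. No paired analysis was possible because the series has 1 group. Depth limits Mir199a-1, with 4 counts in each library, and Mir199a-2, with 48 counts in replicate 2 and 50 in replicate 1.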
